A study of Mus musculus with 151 samples.

Results

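The 9 genes described here, *Pou4f3*, *Gfi1*, *Barhl1*, *Lhx3*, *Atoh1*, *Insm1*, *Rfx3*, *Rfx1* and *Gata3*, encode transcription factors of hair cell fate and maintenance. They were taken by name from the 55291 genes of the count matrix, by a rule that uses no measured level. Earlier results of these data were known when they were chosen. Single cells were picked by hand from mouse cochleae (C57BL/6) and sequenced one by one, giving 50 P30_WT IHCs, 55 P14_WT IHCs and 46 P14_iOHCs. P30_WT IHCs and P14_WT IHCs were inner hair cells of vGlut3-P2A-iCreER/+; Ai9/+ mice at postnatal day 30 and 14, and P14_iOHCs, induced outer hair cells, came from vGlut3-P2A-iCreER/+; Tbx2 flox/-; Ai9/+ mice at postnatal day 14. All cells therefore carried the tamoxifen-dependent iCreER, which is expressed from the locus of *Slc17a8* (vGlut3, the vesicular glutamate transporter of IHCs), and the Tdtomato reporter Ai9. In the mutant the floxed *Tbx2* allele loses exon 2 where iCreER is active and the other allele is null. Picked P14_iOHCs were the smaller Tdtomato+ cells, so the group is a selection by size from a mutant in which larger Tdtomato+ cells remained. The labels do not tie cells to animals. Each group therefore counted as 1 sample, the SDs below are the spread between picked cells, and no test was made between groups.

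In the developing cochlea, *Atoh1* starts the hair cell programme in progenitors. *Pou4f3*, *Gfi1*, *Barhl1* and *Lhx3* act downstream of it and are needed for hair cells to mature or survive, and *Gata3* is used from the otic placode onwards in hair cells, supporting cells and spiral ganglion neurons. *Insm1* is a transient factor of nascent OHCs, and *Rfx1* and *Rfx3* belong to the RFX family, which drives genes of cilia and is needed for OHCs to survive. Both hair cell types share most of these factors, whereas *Tbx2* marks IHCs and *Ikzf2* marks OHCs.

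RefSeq start sites on GRCm38.p6 were matched for 7 of the 9 genes, at 10 positions. The 250 bases before the start are shown for *Barhl1* (chr2:28916669-28916918, minus strand), *Rfx3* (chr19:28011167-28011416, minus strand) and *Atoh1* (chr6:64728875-64729124, plus strand), because these windows hold no annotated exon and belong to a gene of intermediate level, a gene of low level found in most cells, and a gene with counts in 1 cell of each group. Capitals mark the E-box CANNTG, the class of site bound by Atoh1 and other basic helix-loop-helix factors.

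Barhl1: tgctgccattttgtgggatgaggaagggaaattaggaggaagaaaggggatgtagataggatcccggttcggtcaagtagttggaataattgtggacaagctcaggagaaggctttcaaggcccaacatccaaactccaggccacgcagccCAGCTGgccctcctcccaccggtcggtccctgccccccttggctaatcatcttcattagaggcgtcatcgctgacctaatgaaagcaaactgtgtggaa

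Rfx3: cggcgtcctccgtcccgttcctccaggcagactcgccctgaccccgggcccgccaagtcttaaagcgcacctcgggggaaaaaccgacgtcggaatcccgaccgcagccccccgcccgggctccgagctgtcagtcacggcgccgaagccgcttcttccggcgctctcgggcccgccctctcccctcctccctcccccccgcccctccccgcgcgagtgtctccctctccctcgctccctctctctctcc

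Atoh1: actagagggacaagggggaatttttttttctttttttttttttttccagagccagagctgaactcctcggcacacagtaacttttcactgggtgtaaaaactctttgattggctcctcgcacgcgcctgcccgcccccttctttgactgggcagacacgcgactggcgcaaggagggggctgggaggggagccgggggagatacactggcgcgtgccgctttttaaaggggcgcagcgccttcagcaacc

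The *Barhl1* window held 1 E-box, of the form CAGCTG, and the windows of *Rfx3* and *Atoh1* held no CANNTG. On either strand, CANNTG occurs in 66.2% and CAGCTG in 13.0% of the 32817 windows of the same length in the RefSeq table, counting CAGCTG also as a CANNTG. *Barhl1* had CAGCTG upstream of both of its start sites. The *Rfx3* window was 72.8% G or C with 30 CpG dinucleotides, against a median of 52.4% and 6 over all windows, and it held 3 copies of GGGCGG, which 32.7% of windows contain. The *Atoh1* window was 55.6% G or C with 14 CpG and 1 GGGCGG. No copy of GTTGCC (10.4% of windows), a core of the X-box bound by RFX proteins, of AGATAA (9.99%), a GATA site, or of TAATTA (4.85%), a homeodomain core, was found in these 3 windows, which says only that the letters are not there. No relation between these sequences and the levels below was tested.

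The cells carried the markers of their labels, with supporting-cell markers beside them in P14_iOHCs. All 14 general hair cell markers, such as *Myo6* and *Myo7a*, had counts in at least 50% of the cells of P14_WT IHCs and of P14_iOHCs, and 13 of them did in P30_WT IHCs. *Tbx2*, the targeted gene, had a mean of 260 ± 127 CPM (counts per 1000000 counts of the cell; SD, n = 55 cells) in P14_WT IHCs, 69.3 ± 87.4 CPM (SD, n = 46) in P14_iOHCs and 193 ± 103 CPM (SD, n = 50) in P30_WT IHCs, and the IHC and P14_iOHC ranges overlapped. The counts per gene do not separate exon 2 from the others. The summed level of 4 IHC markers (*Slc17a8*, *Otof*, *Slc7a14* and *Calb2*) had a median of 20581 CPM in P14_WT IHCs, 1994 CPM in P14_iOHCs and 19618 CPM in P30_WT IHCs, and that of 4 OHC markers (*Slc26a5*, *Ikzf2*, *Lbh* and *Ocm*) 239.5, 42947 and 265 CPM. Each sum was mostly 1 gene. *Calb2* averaged 14956 CPM in P14_WT IHCs and 2154 CPM in P14_iOHCs. *Ocm* averaged 744 CPM in P14_WT IHCs, with counts in 54 of 55 cells, and 37457 CPM in P14_iOHCs. The highest P14_iOHC reached 20890 CPM in the IHC sum. *Ikzf2* was at 309 ± 287 CPM in P14_iOHCs and had 1 count over all P14_WT IHCs. Of 14 supporting-cell markers that could be compared, 13 were past 2-fold higher in P14_iOHCs, beside 23.7% of all genes compared. *Ptgds*, at 0.721 CPM in P14_WT IHCs and 32.5 CPM in P14_iOHCs, entered the comparison through the P14_iOHCs alone. A sum was taken over the list of 18 supporting-cell markers without *Fbxo2*, which is abundant in these hair cells. It ranged from 0 to 2210 CPM in P14_WT IHCs, from 0 to 10710 CPM in P14_iOHCs and from 0 to 779 CPM in P30_WT IHCs. Of 8 neuronal markers, 4 could be compared and all 4 were past 2-fold lower in P14_iOHCs, beside 16.9% of all genes compared. Of 7 glial markers, 4 could be compared and all 4 were past 2-fold higher, beside 23.7% of all genes compared. The glial sum had a median of 0 CPM in P14_WT IHCs and 29.1 CPM in P14_iOHCs, where it reached at most 277 CPM. The supporting-cell gene *Prox1* had no count in either P14 group. The part of RNA from such cells in the values below was not tested. Totals per cell ran from 4326416 to 25035444 counts and fell in a lower set of 51 cells and an upper set of 100 cells, with cells of every group in both.

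*Pou4f3*, *Gata3* and *Gfi1* had counts in every cell of the 3 groups and took most of the reads on the 9 genes. In the median cell they contributed 89.7% of the summed CPM of the 9 genes in P14_WT IHCs, 91.1% in P14_iOHCs and 92.0% in P30_WT IHCs. *Barhl1*, *Lhx3* and *Rfx3* were found in most cells at lower levels per length, *Rfx1* in a minority of P14_iOHCs and P30_WT IHCs, and *Atoh1* and *Insm1* in almost none. Every cell had counts for 4 to 7 of the 7 genes other than *Atoh1* and *Insm1*.

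**Figure D1:**
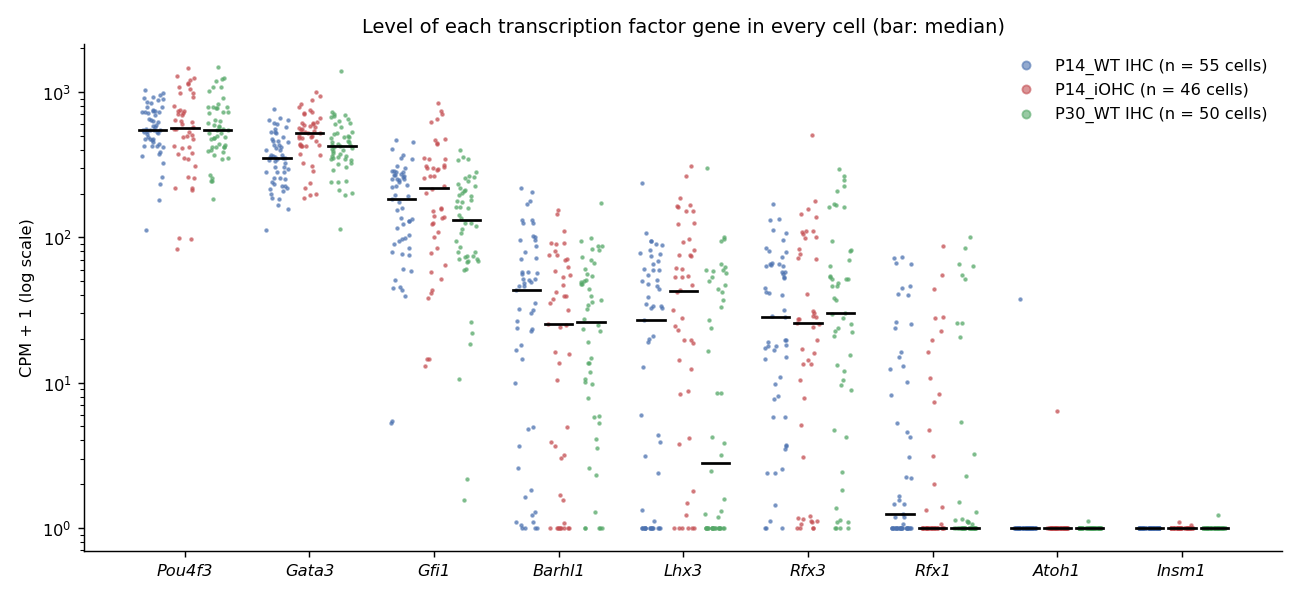
Level of each of the 9 transcription factor genes in every cell, as CPM + 1 on a log axis, for 55 P14_WT IHCs, 46 P14_iOHCs and 50 P30_WT IHCs (points are cells, black bars are medians). *Pou4f3*, *Gata3* and *Gfi1* were above 0 in all cells, whereas *Barhl1*, *Lhx3*, *Rfx3* and *Rfx1* spread down to 0 and *Atoh1* and *Insm1* lay at 0 in nearly every cell.

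*Pou4f3*, the POU-domain factor that hair cells need to survive, had the highest level per length of the 9 in each group. In P14_WT IHCs it ranged from 111 to 1028 CPM with a median of 550 CPM, in P14_iOHCs from 81.7 to 1462 CPM with a median of 566 CPM, and in P30_WT IHCs from 182 to 1484 CPM with a median of 547 CPM. The 3 distributions lay on top of each other, with medians between 547 and 566 CPM, and both other groups reached above the highest P14_WT IHC. Of the 46 P14_iOHCs, 8 were above every P14_WT IHC and 3 were below every one. Means were 591 ± 208, 626 ± 349 and 617 ± 291 CPM in the same order (SD, n = 55, 46 and 50 cells), which gave log2 ratios to P14_WT IHCs of 0.08 for P14_iOHCs and 0.06 for P30_WT IHCs. A P14_iOHC was higher than a P14_WT IHC in 50.1% of all pairs of cells. From counts summed over each group the level was 584 CPM (95% exact Poisson interval 583 to 586) in P14_WT IHCs, 599 CPM (598 to 601) in P14_iOHCs and 659 CPM (658 to 661) in P30_WT IHCs. These intervals cover counting error only, since the reads carry no molecular identifiers and are not independent. The binomial intervals below describe the number of picked cells with a count and hold no variation between animals.

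*Gfi1* (chr5:107716657-107726036, minus strand, GRCm38), a zinc-finger repressor that hair cells need to survive, was present in every cell but varied more between cells. P14_WT IHCs ranged from 4.31 to 468 CPM with a median of 181 CPM. P14_iOHCs ranged from 11.9 to 841 CPM with a median of 218 CPM, and P30_WT IHCs from 0.557 to 400 CPM with a median of 129 CPM. Of the P14_iOHCs, 7 were above the highest P14_WT IHC, 2 P30_WT IHCs were below the lowest one, and all other cells of both groups lay within the P14_WT IHC range. Means were 187 ± 115 CPM, 256 ± 207 CPM and 148 ± 98.6 CPM, with log2 ratios of 0.45 for P14_iOHCs and -0.35 for P30_WT IHCs over P14_WT IHCs. Both differences were smaller than the SD between cells. From summed counts the level was 188 CPM (187 to 189) in P14_WT IHCs, 241 CPM (240 to 242) in P14_iOHCs and 150.8 CPM (149.9 to 151.8) in P30_WT IHCs. An exon of *A430072P03Rik* on the opposite strand shares 101 bases with *Gfi1*, and since the strand setting of the counting is not given, reads there cannot be assigned with certainty. That gene was at 4.31 to 6.10 CPM on average.

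*Gata3* (chr2:9857078-9890034, minus strand), a zinc-finger factor of the whole sensory epithelium, had the largest difference of the 9 at P14 relative to the spread between cells. P14_WT IHCs ranged from 112 to 768 CPM with a median of 351 CPM, P14_iOHCs from 186 to 1001 CPM with a median of 518 CPM, and P30_WT IHCs from 114 to 1395 CPM with a median of 421 CPM. Of the 46 P14_iOHCs, 38 were above the median of the P14_WT IHCs, although only 5 were above their highest cell. Means were 370 ± 149, 524 ± 193 and 449 ± 200 CPM. The log2 ratio was 0.50 (1.41-fold) for P14_iOHCs and 0.28 (1.21-fold) for P30_WT IHCs. The first difference amounted to 0.90 of the SD between cells, with the P14_iOHC higher in 73.7% of pairs, and the second to 0.45 SD and 63.1% of pairs. Summed counts gave 374 CPM (372 to 375), 521 CPM (519 to 522) and 451 CPM (449 to 452) for P14_WT IHCs, P14_iOHCs and P30_WT IHCs. The overlapping gene *9230102O04Rik* shares 77 exon bases with *Gata3* on the same strand and was at 3.82 to 12.1 CPM.

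*Lhx3* (chr2:26200212-26208289, minus strand), a LIM-homeodomain factor of postnatal hair cells, had the largest ratio at P14 of the 7 genes that could be compared, over all cells. It had counts in 39 of 55 P14_WT IHCs (70.9%, 95% exact Clopper-Pearson interval 57.1 to 82.4%), in 40 of 46 P14_iOHCs (87.0%, 73.7 to 95.1%) and in 30 of 50 P30_WT IHCs (60.0%, 45.2 to 73.6%). With every cell thinned to 4326416 counts, the smallest total, the shares were 69.1%, 87.0% and 58.0%. In P14_WT IHCs the lowest cell was at 0, the median at 25.9 CPM and the highest at 235 CPM. In P14_iOHCs the median was 41.5 CPM and the highest cell was at 309 CPM, and in P30_WT IHCs the median was 1.81 CPM and the highest cell was at 299 CPM. Some cells of each group were at 0, and 2 P14_iOHCs and 1 P30_WT IHC were above the highest P14_WT IHC. Means were 34.8 ± 42.5, 62.9 ± 72.6 and 26.7 ± 49 CPM, with a log2 ratio of 0.85 (1.81-fold) for P14_iOHCs and -0.38 for P30_WT IHCs. *Lhx3* was the only one of the 9 whose P14 ratio passed 2-fold in more than 1 of the alternatives tried. Without the 16 P14_iOHCs in which the summed supporting-cell markers exceeded those of every P14_WT IHC, its log2 ratio was 1.17. By medians the P30 ratio was -3.84, as the median P30_WT IHC was close to 0.

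*Barhl1* (chr2:28907679-28916668, minus strand), a homeodomain factor that hair cells need for their upkeep, was lower on average in P14_iOHCs and in P30_WT IHCs than in P14_WT IHCs. Counts were found in 51 of 55 P14_WT IHCs (92.7%, 82.4 to 98.0%), 37 of 46 P14_iOHCs (80.4%, 66.1 to 90.6%) and 45 of 50 P30_WT IHCs (90.0%, 78.2 to 96.7%), and after thinning in 89.1%, 78.3% and 90.0%. The highest cell was at 217 CPM in P14_WT IHCs, 153 CPM in P14_iOHCs and 171 CPM in P30_WT IHCs, and medians were 42.1, 24.1 and 25.2 CPM. All groups reached down to 0. Means were 52 ± 55, 36.4 ± 40 and 35 ± 35.3 CPM, with log2 ratios of -0.52 for P14_iOHCs and -0.57 for P30_WT IHCs. The direction at P14 differed between the sets of totals. In the upper set of totals the mean was 51.7 CPM over 39 P14_WT IHCs and 26.5 CPM over 34 P14_iOHCs, and in the lower set it was 52.7 CPM over 16 and 64.3 CPM over 12 cells.

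The RFX genes were present at low levels per length. *Rfx3* (chr19:27761721-28011166, minus strand) had counts in 52 of 55 P14_WT IHCs, 42 of 46 P14_iOHCs and 46 of 50 P30_WT IHCs (94.5%, 91.3% and 92.0%, after thinning 92.7%, 84.8% and 84.0%), with medians of 27.3, 24.6 and 29 CPM and highest cells at 168, 502 and 293 CPM. Its means were 39.7 ± 39.7, 52.9 ± 83.9 and 60.2 ± 77.2 CPM, so the means of the other groups were above that of the P14_WT IHCs while the medians were close. The log2 ratios of the means were 0.41 and 0.60, and at P14 the difference was -0.25 on the mean of log2(CPM + 1). In the lower set of totals the *Rfx3* ratio at P14 was 1.14, past 2-fold. The means there were 72.4 ± 144 CPM over 12 P14_iOHCs and 32.8 ± 46.8 CPM over 16 P14_WT IHCs. The 12 include the cell at 502 CPM, and the next highest of them was at 178 CPM, so the ratio leaned on 1 cell. In 7 of the 42 P14_iOHCs with *Rfx3*, the count was between 1 and 4. *Rfx1* (chr8:84066834-84096992, plus strand) had counts in 31 of 55 P14_WT IHCs (56.4%, 42.3 to 69.7%), 17 of 46 P14_iOHCs (37.0%, 23.2 to 52.5%) and 20 of 50 P30_WT IHCs (40%, 26.4 to 54.8%), and after thinning in 50.9%, 37.0% and 32%. Its highest cells were at 71.6, 86.0 and 99.5 CPM, whereas the median was 0.252 CPM in P14_WT IHCs and 0 in the other groups. Means were 10.9 ± 20.1, 7.04 ± 16.7 and 9.88 ± 23.6 CPM, with log2 ratios of -0.63 and -0.15. At P14 the ratio was -2.34 in the lower set of totals, past 2-fold, and -0.18 in the upper set. An antisense gene, *C330011M18Rik*, shares 42 exon bases with *Rfx1* and was at 2.1 to 4.06 CPM, so part of the *Rfx1* reads is uncertain.

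*Atoh1* (chr6:64729125-64731245, plus strand) and *Insm1* (chr2:146221921-146225020, plus strand), the factors of early development and both genes of a single exon, were near the limit of detection. *Atoh1* had counts in 1 cell of each group, with 634 counts (36.5 CPM) in P14_WT IHC 30, 51 counts (5.40 CPM) in P14_iOHC 12 and 1 count (0.111 CPM) in P30_WT IHC 8. The P14_WT IHC with *Atoh1* had 895 CPM of *Pou4f3* and 350 CPM of *Gata3*, beside medians of 550 and 351 CPM in its group. It had 396 CPM of *Tbx2* and no count of the OHC gene *Slc26a5* (prestin). Over the group the *Atoh1* sum corresponded to 0.801 CPM (0.740 to 0.866) in P14_WT IHCs, all of it from that cell. *Insm1* had no count in any P14_WT IHC, 1 count in each of 2 P14_iOHCs and 2 counts in 1 P30_WT IHC. A count of 0 in 55 cells allows a share of cells with a count of up to 5.45% (3 of 55), and the exact Clopper-Pearson interval reaches 6.49%. These limit cells with a count, not cells that express the gene. Levels of 3 counts or fewer over a group were not turned into a ratio.

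**Figure D2:**
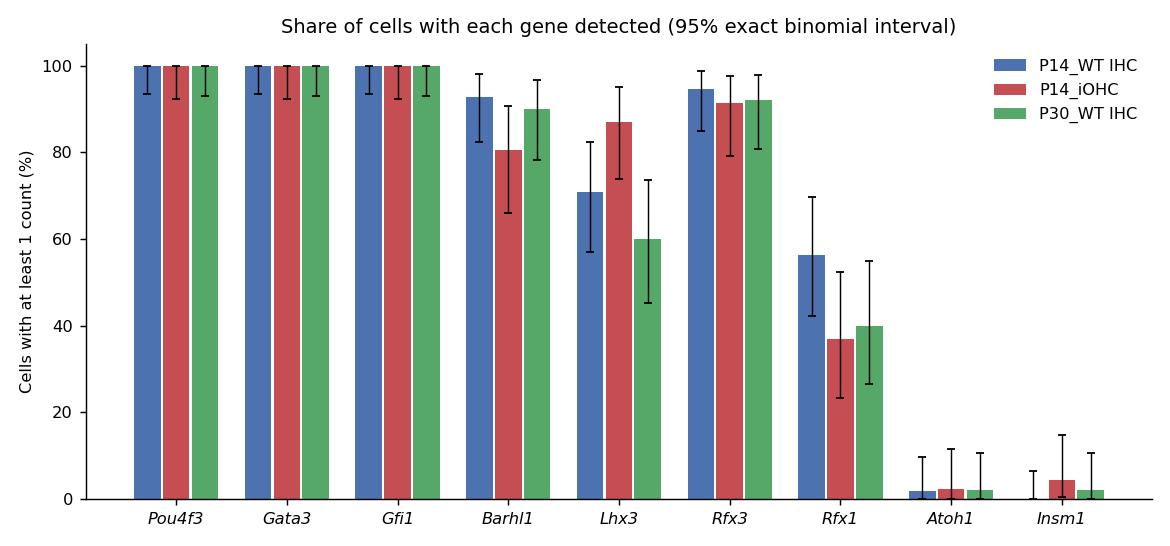
Percent of cells with at least 1 count of each gene in the 3 groups, with 95% exact binomial intervals as error bars. Detection was 100% for *Pou4f3*, *Gata3* and *Gfi1*, and at most 4.35% for *Atoh1* and *Insm1*. For *Lhx3* it was 70.9% in P14_WT IHCs, 87.0% in P14_iOHCs and 60.0% in P30_WT IHCs.

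Per length of exon, in TPM (transcripts per 1000000, from union exon lengths of GENCODE M21), the order of mean levels was *Pou4f3*, *Gata3*, *Gfi1*, then *Barhl1* and *Lhx3*, then *Rfx3* and *Rfx1*, then *Atoh1* and *Insm1*. In P14_WT IHCs the mean TPM was 603 ± 215 for *Pou4f3*, 227 ± 92.7 for *Gata3* and 144 ± 89.6 for *Gfi1* (SD, n = 55 cells), followed by 32.1 for *Barhl1*, 28 for *Lhx3*, 8.85 for *Rfx3* and 4.28 for *Rfx1*. In P14_iOHCs the 3 leading genes were at 573 ± 316, 294 ± 117 and 177 ± 144 TPM (SD, n = 46), and *Lhx3* at 46.6 TPM stood above *Barhl1* at 20.6 TPM. In P30_WT IHCs they were at 598 ± 296, 260 ± 113 and 108 ± 73.3 TPM (SD, n = 50), and *Lhx3* and *Barhl1* were level at 20.6 and 20.5 TPM. Neighbours were not separated everywhere. The interquartile ranges of *Pou4f3* and *Gata3* were apart in both IHC groups and overlapped in P14_iOHCs, those of *Gata3* and *Gfi1* overlapped in P14_WT IHCs, and those of *Barhl1* and *Lhx3* overlapped in every group. The gap between *Gfi1* and the next gene held in all 3 groups. Further down, the range of *Rfx3* overlapped that of the gene ranked just above it in every group. That of *Rfx1* overlapped that of the gene ranked just below it in every group. Those of *Rfx3* and *Rfx1* overlapped in both P14 groups and were apart in P30_WT IHCs.

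For P14_iOHCs and P14_WT IHCs, the comparison that follows the loss of *Tbx2*, 7 of the 9 genes had a mean of at least 1 CPM in a group. None of the 7 was past 2-fold, whereas 23.7% of the 15956 genes compared were past 2-fold higher and 16.9% past 2-fold lower in P14_iOHCs. Their median log2 ratio was 0.41, against 0.10 over all genes, and their median absolute log2 ratio 0.50, against 0.74. Ratios scatter more among genes of low level. Among the 2331 genes that averaged 100 CPM or more, the class of *Pou4f3*, *Gfi1* and *Gata3*, 11.5% were past 2-fold higher and 9.35% lower.

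For P30_WT IHCs and P14_WT IHCs, which asks what changes as IHCs age, none of the same 7 genes was past 2-fold, beside 15.1% of 15436 genes past 2-fold higher and 14.9% past 2-fold lower. The median log2 ratio of the 7 was -0.15, against -0.01 over all genes, and the median absolute ratio 0.35, against 0.54. Of genes that averaged 100 CPM or more, 2.08% were past 2-fold higher and 4.44% lower. Both comparisons use the same P14_WT IHCs.

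**Figure D3:**
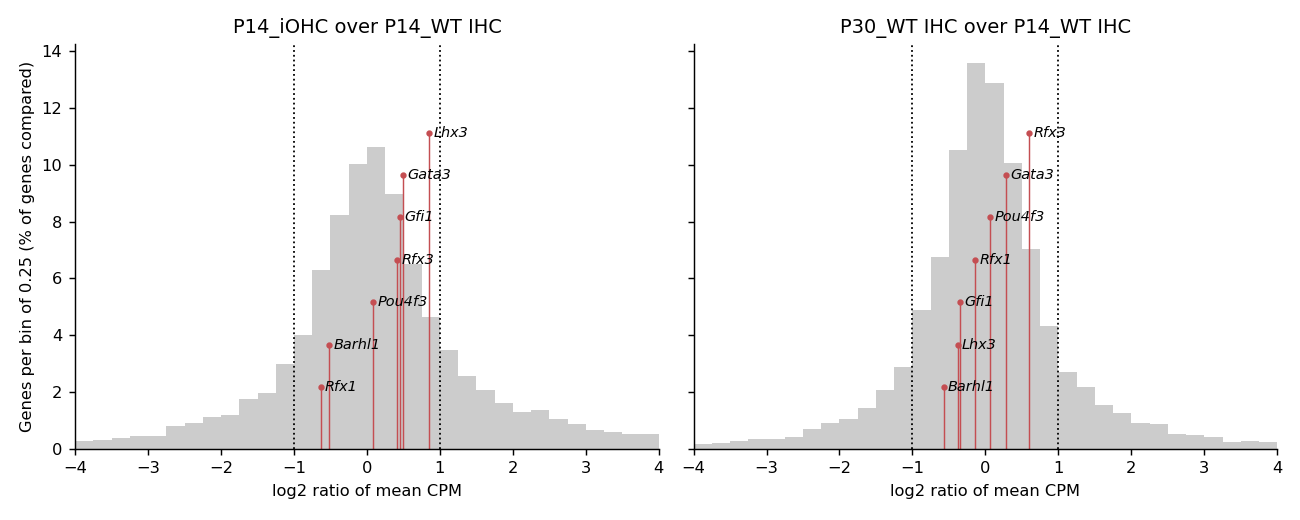
Log2 ratio of mean CPM for 7 of the transcription factor genes (red, the height of a line only separates the names) over the distribution for all genes compared (grey bars, percent of genes per bin of 0.25), for P14_iOHCs (left) and P30_WT IHCs (right) over P14_WT IHCs. Dotted lines mark 2-fold. All 7 lie between the dotted lines in both comparisons, from -0.63 for *Rfx1* to 0.85 for *Lhx3* at P14.

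Several relatives of these factors were past 2-fold in P14_iOHCs. Of 31 genes of the same families, 12 could be compared at P14, and 6 were past 2-fold higher and 1 lower, beside 23.7% and 16.9% of all genes compared. Of the 6, *Pou4f1*, *Atoh8* and *Insm2* averaged 1.04, 1.15 and 2.75 CPM in P14_iOHCs, *Pou4f1* with counts in 2 cells. At P14, these 3 and *Gata2* averaged 1 CPM or more only in P14_iOHCs. They entered the comparison through the group where they were high, so the count of 6 is not read as a result about the families. *Isl1*, a LIM-homeodomain gene like *Lhx3*, was at 72 ± 79.5 CPM in P14_WT IHCs, 334 ± 139 CPM in P14_iOHCs and 49.2 ± 71.4 CPM in P30_WT IHCs, a log2 ratio of 2.21 at P14. Counts of *Isl1* were found in all 46 P14_iOHCs, and 45 of them exceeded the median P14_WT IHC. *Gata2*, best known from blood progenitors, had counts in 2 P14_WT IHCs, 20 P14_iOHCs and 1 P30_WT IHC, with means of 0.519, 36.7 and 0.00249 CPM. *Rfx5*, the RFX factor of MHC class II genes, was at 4.44 ± 9.93 CPM in P14_WT IHCs and 13.2 ± 20.9 CPM in P14_iOHCs. *Rfx7* was at 73.4 ± 66.1, 62.7 ± 68.1 and 73.5 ± 66.5 CPM in P14_WT IHCs, P14_iOHCs and P30_WT IHCs, within 2-fold in both comparisons. *Isl2*, at 29.5, 16.1 and 17.7 CPM, and the RFX partners *Rfxap*, at 22.7, 31.2 and 11.7 CPM, and *Rfxank*, at 14.0, 11.9 and 20.6 CPM, were also within 2-fold. *Pou4f1*, *Gfi1b* and *Barhl2*, relatives of 3 of the members, had no count in P14_WT IHCs. *Pou4f2*, another relative of *Pou4f3* and the 1 past 2-fold lower at P14, had counts in 6 P14_WT IHCs and 4 P30_WT IHCs and in no P14_iOHC. Its means were 3.74 CPM in P14_WT IHCs and 3.80 CPM in P30_WT IHCs. Between the ages, 10 relatives could be compared. Of these, 2 were past 2-fold higher, both with a mean under 10 CPM, and none lower, beside 15.1% and 14.9% of all genes compared.

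Of 30 other regulators of hair cell or cochlear fate, 24 could be compared at P14, with 8 past 2-fold higher and 7 lower, beside 23.7% and 16.9% of all genes compared. These counts include *Ikzf2*, the OHC marker, among the higher and *Tbx2*, the targeted gene, among the lower. *Ikzf2* and *Hey2* entered the comparison only through the P14_iOHCs, and *Myt1l* and *Mycn* only through the P14_WT IHCs. Each was counted on the side where it was high, so the counts are not read as a result about the list. The EYA coactivators of otic development were within 2-fold, with *Eya1* at 104 and 88.7 CPM and *Eya4* at 326 and 400 CPM in P14_WT IHCs and P14_iOHCs. *Six2*, a SIX-family homeobox gene, was at 5.20 ± 11.8 and 285 ± 195 CPM, and the inhibitors of basic helix-loop-helix factors *Id2*, at 76.2 ± 92.6 and 558 ± 470 CPM, and *Id1*, at 19.8 ± 24.8 and 69.9 ± 141 CPM, were also past 2-fold higher. So were *Zbtb20*, at 152 and 485 CPM, and *Nr2f2*, at 29.8 and 76.4 CPM. *Srrm4*, a splicing factor that counters the repressor *Rest* in hair cells, was past 2-fold lower, at 61.5 ± 50.9 CPM in P14_WT IHCs and 5.24 ± 16.1 CPM in P14_iOHCs, and its relative *Srrm3* at 74.1 and 30.5 CPM. *Rest* itself was at 71.4 and 73.8 CPM. The E-protein *Tcf12*, a partner of *Atoh1*, was at 49.7 and 22.8 CPM, and *Casz1* at 50.4 and 12.2 CPM. Between the ages, 23 could be compared, with 2 higher and 2 lower, beside 15.1% and 14.9% of all genes compared. *Hey2*, a Notch effector, was at 0.868 CPM in P14_WT IHCs and 18.3 CPM in P30_WT IHCs, *Id1* at 19.8 and 53.7 CPM, and *Hes6* at 20.3 and 5.75 CPM.

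Most cofactors that work with these proteins were within 2-fold, as were most of all genes compared. Of 17, 14 were compared at P14 with 1 higher and 1 lower, both with a mean under 10 CPM. Between the ages 13 were compared, with none higher and 2 lower. Of all genes compared, 23.7% were past 2-fold higher and 16.9% lower at P14, and 15.1% and 14.9% between the ages. The histone demethylase *Kdm1a*, part of the complex recruited by Gfi1 and Insm1, was at 61.5 ± 58.7 CPM in P14_WT IHCs and 30.4 ± 39.5 CPM in P30_WT IHCs.

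Of 20 genes listed as targets of Atoh1 or Pou4f3 in hair cells, 19 were compared at P14, with 6 past 2-fold higher and 4 lower, beside 23.7% and 16.9% of all genes compared. *Rasd2* entered the comparison only through the P14_iOHCs, where it was high, so the count of 6 is not read as a result about the list. The neurotrophin *Ntf3* was at 293 ± 160 CPM in P14_WT IHCs and had counts in 3 of 46 P14_iOHCs, with a mean of 5.89 ± 31 CPM. *Bdnf* was at 413 ± 191 and 135 ± 143 CPM. In the other direction were *Chrna10*, a subunit of the efferent acetylcholine receptor, at 12.5 ± 23.2 and 278 ± 191 CPM, *Lmod3*, at 306 ± 209 and 768 ± 467 CPM, *Mreg*, at 48.1 and 144 CPM, *Anxa4*, at 3.05 and 25.1 CPM, and *Rasd2*, with no count in P14_WT IHCs and 80.2 ± 106 CPM in P14_iOHCs. *Rbm24*, at 380 and 389 CPM, and *Grxcr1*, at 121 and 120 CPM, were level. *Nr2f2* and *Srrm4* are counted in this list too. Between the ages, 18 were compared, with none higher and 3 lower, beside 15.1% and 14.9% of all genes compared. The 3 were *Lmod3* at 21.2 ± 43.7 CPM, *Ntf3* at 106 ± 92.4 CPM and *Hes6* at 5.75 ± 14.2 CPM in P30_WT IHCs.

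Of 30 ciliary genes, a class that RFX factors drive, 28 were compared at P14, with none higher and 3 lower. Between the ages 29 were compared, with 1 higher and 1 lower. The shares of all genes compared were 23.7% higher and 16.9% lower at P14, and 15.1% and 14.9% between the ages. *Dync2h1*, the heavy chain of the retrograde ciliary motor, was at 183 ± 89.6 CPM in P14_WT IHCs and 65.1 ± 69.1 CPM in P14_iOHCs, and the Bardet-Biedl genes *Bbs5* and *Bbs9* were at 23.8 and 8.86 CPM and at 12.1 and 5.36 CPM. The median log2 ratio of the 28 was -0.42, against 0.10 for all genes, and that of the 29 between the ages -0.03, against -0.01. *Wdr34* was at 39.8 CPM in P14_WT IHCs and 12.2 CPM in P30_WT IHCs, and *Ttc8* at 26.1 and 53 CPM. *Foxj1*, the regulator of motile cilia, averaged below 1 CPM in all groups.

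**Figure D4:**
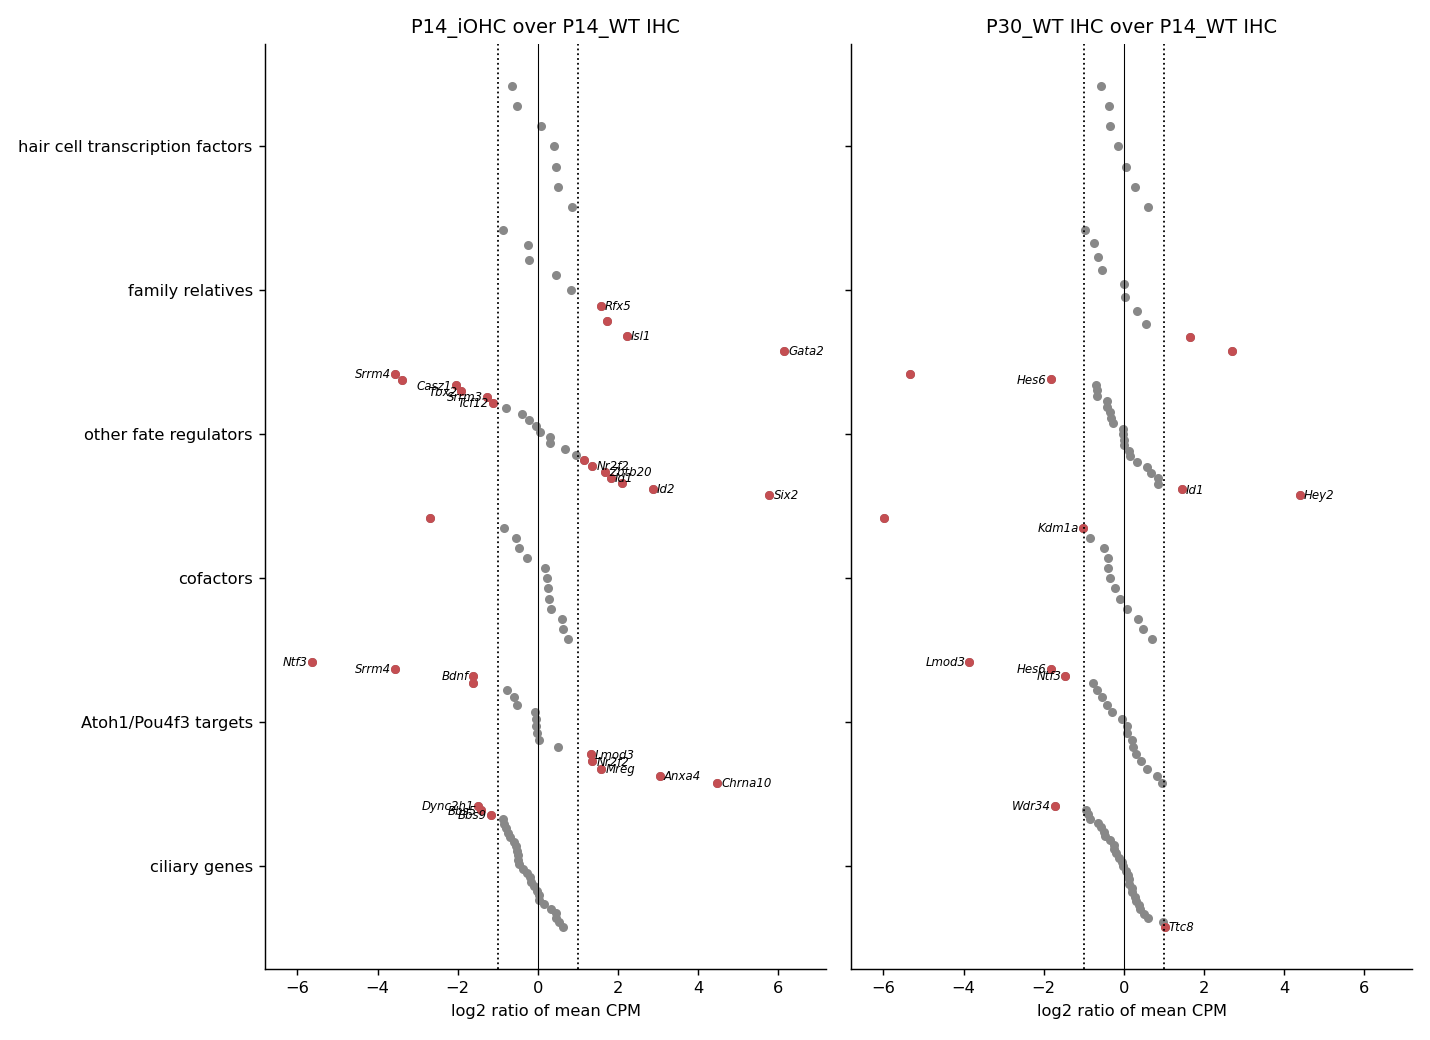
Log2 ratio of mean CPM of each compared gene of 6 lists (one point a gene, in order of its ratio within a list), for P14_iOHCs (left) and P30_WT IHCs (right) over P14_WT IHCs. Red points are past 2-fold (dotted lines), with names where the higher mean was at least 10 CPM, and genes with 3 counts or fewer in a group, such as *Ikzf2* and *Rasd2* at P14, are not drawn. No point of the top row is red, whereas *Isl1*, *Gata2*, *Six2* and *Chrna10* lie far to the right and *Ntf3* and *Srrm4* far to the left at P14.

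Over all cells, with group means removed, Pearson's r of log2(CPM + 1) lay between -0.17 and 0.15 in all 21 pairs of the 7 genes compared. Partners were sought among the 7350 genes that averaged 10 CPM or more in every group. None of these reached an r of 0.5 with any of the 6 transcription factor genes found in 50% or more of every group's cells. The highest values were 0.42 for *Grxcr2* with *Pou4f3* and 0.41 for *Ppp1cb* with *Gfi1*. Within a group some of these genes passed 0.5, such as *Caprin1* with *Gata3* (0.69), *Grxcr2* with *Pou4f3* (0.62) and *Myo6* with *Pou4f3* (0.53) in P14_iOHCs, and *Suds3* with *Gfi1* (0.60) in P30_WT IHCs. Cells share depth and RNA quality, so these are descriptions. Within the 46 P14_iOHCs, *Pou4f3* had an r of 0.47 with *Slc26a5* and -0.40 with the summed supporting-cell markers, and *Gfi1* 0.36 and -0.34. *Gata3* had -0.35 with *Slc26a5* and 0.13 with the sum. Without the 16 P14_iOHCs that exceeded all P14_WT IHCs in that sum, the means over the other 30 were 753 ± 332 CPM for *Pou4f3*, 307 ± 226 CPM for *Gfi1*, 78.4 ± 79.4 CPM for *Lhx3* and 469 ± 173 CPM for *Gata3* (SD, n = 30 cells). The corresponding log2 ratios to P14_WT IHCs were 0.35, 0.71, 1.17 and 0.34, so the first 3 were larger and that of *Gata3* smaller than over all 46 cells. Those of *Barhl1*, *Rfx3* and *Rfx1* were -0.23, 0.73 and -0.51, also above their values over all 46 cells.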

How the data were processed

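Dissociated Tdtomato+ cells were picked by hand and amplified with a Smart-Seq HT kit by the authors, who aligned the paired-end reads to GRCm38 (mm10) with HISAT2 2.1.0 and counted reads per gene with HTSeq 0.10.0; FastQC 0.11.9 and Trimmomatic 0.39 are named in the submitters' processing notes. The deposited values are these raw counts, whole numbers without normalization, 1 column per cell. Annotation release, strand setting and multimapping rule are not given in the sources used here. No library was identical to another, and the P30_WT OHCs of the study were not analysed here. No caller of doublets was run on these picked cells.

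Counts were scaled to 1000000 per cell (CPM), and TPM was computed from union exon lengths of GENCODE M21, available for 53180 of 55291 genes. Groups were compared by the log2 ratio of their mean CPM, over genes averaging 1 CPM or more in one of them. Genes below 1 CPM in the other group entered only through the group where they were higher. A gene was past the fold at 2-fold or more. A gene with 3 counts or fewer over a group was given no ratio, and in the counts of calls it stood at the level of 3 counts over that group. No p-value was computed, since each sample is 1 cell and no animal is named. Promoter sequences are RefSeq's. The calculation of ratios was tested on simulated data. The alternatives were TMM (edgeR 4.0.16) and DESeq2 1.42.0 size factors, totals without mitochondrial genes, summed counts, log2(CPM + 1), medians, thinned counts, each set of totals alone, cells left out, a 4-fold limit and other filters. The 9 genes and the lists of relatives, regulators, cofactors, targets and ciliary genes were chosen with earlier results of these data known. Named beside the 9 genes were list genes past 2-fold averaging 10 CPM or more in the higher group, family relatives at that level in any group, and genes correlated at 0.5 or more. A few others, such as *Eya1*, *Eya4*, *Rest*, *Rbm24* and *Grxcr1*, were chosen after their values were seen. Computations used R 4.3.3, Python 3.11.15, numpy 2.4.6, scipy 1.17.1, pandas 2.3.3 and matplotlib 3.10.9.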

Additional observations from a re-analysis of the deposited data

How the results depend on the processing

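At P14 the count of genes past 2-fold higher, 0 in the report, was 1 (*Lhx3*) on the mean of log2(CPM + 1), 1 (*Lhx3*) without the 13 P14_iOHCs high in all supporting-cell markers, 1 (*Lhx3*) without the 16 high in those other than *Fbxo2*, an exclusion chosen after seeing the data, and 1 (*Rfx3*) in the lower set of totals. The *Rfx3* call leaned on the 1 P14_iOHC at 502 CPM. The count past 2-fold lower was 1 (*Rfx1*) in the lower set and 1 (*Atoh1*, from 1 cell a group) with no filter. Between the ages the count past 2-fold lower was 1 by medians (*Lhx3*) and 1 with no filter (*Atoh1*). The other alternatives tried, both normalizations among them, left all these counts at 0. Of single log2 ratios, *Gfi1*, *Lhx3*, *Rfx1* and *Gata3* kept their sign at P14 under all alternatives tried, *Gfi1* between 0.26 and 0.84, *Gata3* between 0.34 and 0.75, *Lhx3* between 0.68 and 1.17 and *Rfx1* between -2.34 and -0.18. *Pou4f3* (lowest -0.08), *Barhl1* (highest 0.29, in the lower set) and *Rfx3* (lowest -0.25) did not. Between the ages *Pou4f3*, from -0.07 to 0.17, and *Rfx1*, from -0.59 to 0.09, changed sign. By CPM in place of TPM, 2 genes took another rank in each group. By DESeq2 size factors the median log2 ratio of all genes at P14 was 0.19 in place of 0.10. By medians it was -0.14 at P14 and -0.29 between the ages, beside 13.6% of genes past 2-fold higher and 23.3% lower at P14, and 6.91% and 27.3% between the ages. The cause of these changes was not tested. No paired analysis was possible because the values come from no test and the cell numbers mark no shared animal. With 1 group of cells per condition, a difference between animals or picking sessions cannot be told apart from one between the groups.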

Other observations

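General hair cell genes were another list, with members of the stereocilia and calcium-handling machinery beside motor proteins. Of 14, all were compared in both comparisons, with 1 higher and 1 lower at P14 and none higher and 2 lower between the ages. Of all genes compared, 23.7% were past 2-fold higher and 16.9% lower at P14, and 15.1% and 14.9% between the ages. Among genes that averaged 100 CPM or more, the shares were 11.5% and 9.35% at P14, and 2.08% and 4.44% between the ages. *Strc*, which encodes stereocilin, the protein linking OHC stereocilia to each other and to the tectorial membrane, was at 25.3 ± 41.1 CPM (SD, n = 55 cells) in P14_WT IHCs and 178 ± 125 CPM (SD, n = 46) in P14_iOHCs. *Ush1c*, which encodes harmonin, was at 1101 ± 442 and 516 ± 224 CPM. In P30_WT IHCs the calcium buffers *Calb1* and *Pvalb* were past 2-fold lower. *Pvalb* was at 2099 CPM in P14_WT IHCs and 677 CPM at P30. *Calb1* averaged 583 ± 1124 CPM in P14_WT IHCs, with a median of 45.8 CPM and counts in 41 of 55 cells, and 2.51 CPM at P30.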
